A study of Mus musculus with 6 samples.

Results

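Protocadherins are adhesion proteins of the cadherin superfamily that sit in the membrane of neurons and of some other cells. The members described here were the rows of the deposited count table whose gene name begins Pcdh, which were 67 of 41386 genes. Of these, 64 had at least 10 counts over the 6 libraries and were tested together with the other genes that passed this filter, 22996 in all. The 12 non-clustered genes were all tested, as were 12 of 13 Pcdha rows, 21 of 22 Pcdhb rows and 19 of 20 Pcdhg rows. The rows that were not tested were Pcdhb1 with 9 counts in all, the second of the rows named Pcdha11 with 1 count, and Pcdhga10 with 0 counts in every library.

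The clustered protocadherins lie side by side on mouse chromosome 18, each with a promoter in front of its variable exon. Of those other than the C-type genes at the 3′ ends of Pcdha and Pcdhg, a neuron is known to switch on its own small selection. In the Pcdha and Pcdhg clusters the variable exon is spliced to constant exons that the whole cluster shares, whereas the Pcdhb genes are single exons. The proteins bind the same isoform on a facing membrane and let the branches of a neuron tell themselves from those of other neurons. Most non-clustered protocadherins belong to the delta family, whose members act in cell sorting, dendrite and axon growth and synapse formation, and whose delta-1 and delta-2 branches differ in the motifs of their cytoplasmic tails.

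Gene expression was measured by RNA-seq in the hippocampus of male wild type C57BL/6 mice (C57BL/6J in the methods of the study) aged 56 days. In the I/R group (3 libraries) the middle cerebral artery was blocked with a filament for 1.5 h and reperfused for 24 h, and in the sham group (3 libraries) the same surgery was done without inserting the filament. Per the methods of the study, the hippocampus came from the operated side and several hippocampi were pooled for each library, so replicates differ as pools do and say nothing of how single animals vary. In such bulk tissue, fewer cells of a type and less RNA per cell cannot be told apart.

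The libraries held 37493042 to 44788547 counts, of which 0.139% to 0.188% fell on protocadherins. The unit CPM is the usual rate of counts against the size of the library, here after TMM scaling (edgeR's trimmed mean of M-values). A gene was called higher or lower in I/R where its adjusted p (edgeR's quasi-likelihood test, Benjamini-Hochberg over all genes tested) was below 0.05 and its fold change exceeded 1.2. By this rule 33.4% of all genes tested were called, 17.2% higher and 16.3% lower. I/R replicate 1 stood apart, at -111 on the first principal component of all genes (59.6% of the variance), against -58.8 and -47.5 for the other I/R libraries and 69.5 to 74.4 for sham, and it was the I/R library farthest from sham in 79.3% of the genes called lower. The summed level of 10 choroid plexus markers was 1601, 3652 and 44.0 CPM in I/R replicates 1, 2 and 3 and 43.5, 2758 and 4550 CPM in sham replicates 1, 2 and 3, so each group held libraries with high and with low levels of these markers. With scaling by library size alone, the median log2 fold change of all genes moved from 0.07 to 0.35 and the share of calls that were higher moved from 51.4% to 76.8%.

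After I/R, 38 of the 64 tested protocadherins fell and 1, Pcdh8, rose. The share that fell was 59.4%, where 16.3% of all genes tested fell, and the median log2 fold change of the members was -0.57 where that of all genes tested was 0.07. All 3 I/R libraries lay below all 3 sham libraries in 50 of the tested members and above them in 3, while over all genes tested 24.3% lay below and 26.1% above. Among the 38 members that fell, the I/R library farthest from sham was replicate 1 in 24, replicate 2 in 10 and replicate 3 in 4 (79.3%, 13.1% and 7.65% of all genes called lower). The summed level of 9 neuron markers was lower in I/R as well, at 2693, 5698 and 6412 CPM in I/R replicates 1, 2 and 3 and 14007 to 14360 CPM in sham, and its part in the lower protocadherin levels was not tested.

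The order of the levels in sham tissue was read from FPKM, which divides counts by gene length. Pcdh1 stood first at 170 ± 5.93 FPKM (SD, n = 3), above every other member in each library. Pcdhgc5 (39.4 ± 1.06 FPKM), Pcdh9 (38.7 ± 0.533) and Pcdh20 (36.8 ± 4.91) followed, and Pcdhgc5 overlapped Pcdh9 and Pcdh9 overlapped Pcdh20. Below Pcdh20, with no overlap, came Pcdh10 at 25.5 ± 0.0740 FPKM and Pcdh8 at 23.4 ± 1.38, whose libraries did not overlap. Pcdh19 (20.2 ± 1.71) and Pcdh7 (18.9 ± 0.541) overlapped each other and lay above Pcdh17 at 14.0 ± 0.957. Apart from Pcdhgc5, the clustered genes were lower than these, led by Pcdhac2 at 7.17 ± 0.521 and Pcdhgc3 at 6.10 ± 0.373 FPKM. In the GENCODE M21 annotation 48.6% of the exonic bases of Pcdhac2 and 66.9% of those of Pcdhgc3 lay within exons of other genes. Where reads there were dropped and the length kept these bases, the FPKM of Pcdha and Pcdhg genes would be too low. Their place against the non-clustered genes is therefore uncertain. The gene length behind the deposited FPKM equalled the length column of the table within 1 base in 35 of 66 members and was shorter in 31. With the length column in its place Pcdh1 stayed first, Pcdh20 moved to rank 2, Pcdh9 held rank 3 and Pcdhgc5 moved to rank 4, while Pcdh17 at rank 7 came to lie above Pcdh19 at rank 8 and Pcdh7 at rank 9.

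Among the delta-1 protocadherins, Pcdh1 and Pcdh9 fell and Pcdh7 and Pcdh11x were not called. Pcdh1, an adhesion gene also known from airway epithelium, was at 198, 313 and 307 CPM in I/R replicates 1, 2 and 3 and at 527, 573 and 560 CPM in sham. All I/R libraries lay below all sham libraries, with I/R replicate 1 the lowest, and the log2 fold change was -1.02 (SE 0.175, adjusted p = 0.0025 by edgeR's quasi-likelihood test). Pcdh9, known for its part in the layout of sensory cortex, was at 120, 113 and 134 CPM in I/R and at 163, 162 and 164 CPM in sham. Its groups did not overlap either, and the smaller change of -0.42 (SE 0.096, adjusted p = 0.0096 by edgeR) was -0.14 with an adjusted p of 0.26 under scaling by library size alone.

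Pcdh7, a delta-1 member whose tail binds protein phosphatase 1, was at 64.5, 72.2 and 82.8 CPM in I/R and at 72.5, 75.4 and 70.2 CPM in sham. The I/R libraries spread across the sham range, and the log2 fold change was 0.01 with a 95% interval of -0.23 to 0.25, which does not include the -1.02 of Pcdh1. Under scaling by library size alone its value was 0.28 (adjusted p = 0.039 by edgeR), below the median of 0.35 of all genes under that scaling. Pcdh11x, the X-linked delta-1 gene, was at 15.8, 17.8 and 18.7 CPM in I/R and at 15.0, 11.0 and 14.6 CPM in sham. Its groups did not overlap, and the difference of 0.37 did not pass the test (adjusted p = 0.094 by edgeR). It passed without I/R replicate 1, at 0.43 with an adjusted p of 0.019.

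**Figure D1:**
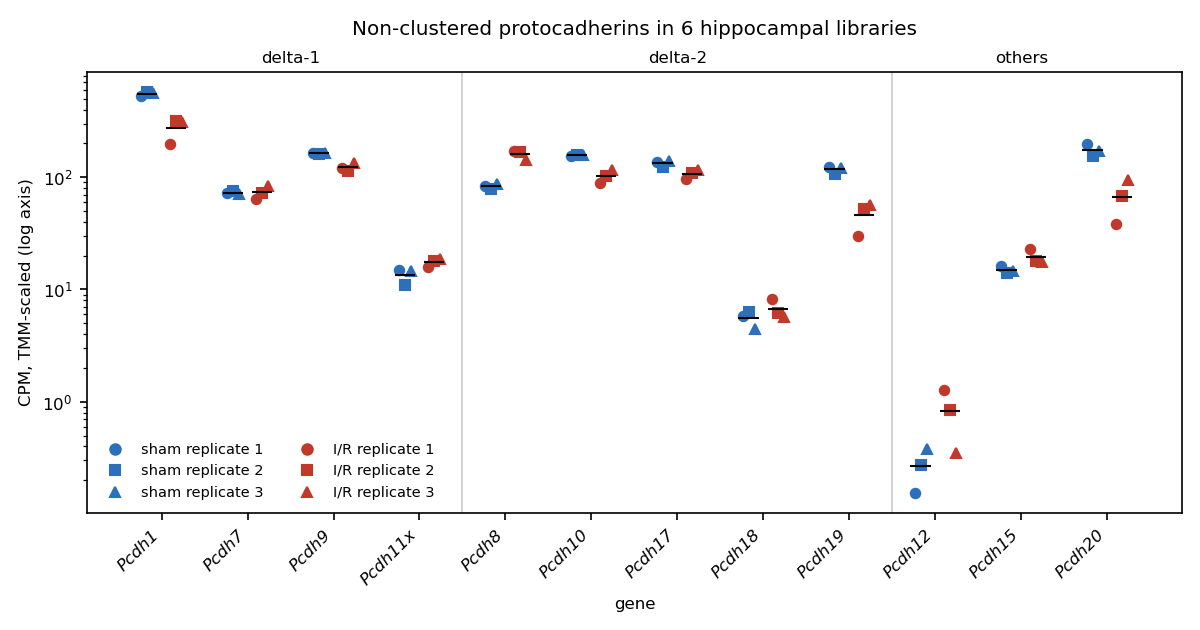
Level of the 12 non-clustered protocadherins in each library, in CPM on a log axis, with sham in blue, I/R in red, a marker shape for each replicate number and a black line at each group mean. The 3 I/R points of Pcdh1, Pcdh9, Pcdh10, Pcdh17, Pcdh19 and Pcdh20 lie below the 3 sham points and those of Pcdh8, Pcdh11x and Pcdh15 lie above them.

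The delta-2 protocadherins held the only member that rose and 3 that fell. Pcdh8, also named arcadlin, is known as a gene that neuronal activity induces and whose protein drives N-cadherin into the cell through the kinase Taok2. It was at 171, 166 and 143 CPM in I/R replicates 1, 2 and 3 and at 83.3, 78.1 and 86.3 CPM in sham. Every I/R library lay well above the sham range, and the level was 1.94-fold higher in I/R (log2 fold change 0.96, SE 0.101, adjusted p = 3.3e-04 by edgeR's quasi-likelihood test). The call held under all 18 alternative scalings, filters, tests and left-out libraries, with a log2 fold change of 0.91 to 1.24. In the GENCODE M21 annotation 9.61% of the exonic bases of Pcdh8 lie within exons of other genes (21.1% of those of Pcdh7), and whether the counting used the strand is not stated.

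Pcdh19, the X-linked gene whose mutations cause an epilepsy that affects mosaic carriers, fell the furthest of the delta-2 genes. It was at 29.8, 52.0 and 56.0 CPM in I/R and at 124, 107 and 121 CPM in sham. The groups were far apart with I/R replicate 1 again lowest, and the log2 fold change was -1.35 (SE 0.214, adjusted p = 0.0023 by edgeR). Pcdh10, whose tail binds the WAVE complex subunit Nckap1, was at 88.0, 102 and 116 CPM in I/R and at 155, 158 and 156 CPM in sham. Its groups did not overlap, with a log2 fold change of -0.62 (SE 0.112, adjusted p = 0.0032 by edgeR).

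Pcdh17, known for presynaptic assembly in cortico-basal ganglia circuits, was at 96.0, 109 and 116 CPM in I/R and at 136, 124 and 139 CPM in sham. Its groups did not overlap, and the change of -0.31 (SE 0.102) was close to the threshold (adjusted p = 0.043 by edgeR). It was not called without any one of I/R replicates 1 and 2 and the 3 sham libraries (values of -0.24 to -0.36), and with scaling by library size alone the value was -0.04. Pcdh18, whose protein binds the reelin adaptor Dab1, was at 8.19, 6.16 and 5.63 CPM in I/R and at 5.82, 6.34 and 4.42 CPM in sham. Its groups overlapped, and the 95% interval of its log2 fold change ran from -0.21 to 0.75.

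Of the other non-clustered genes, Pcdh20 fell and Pcdh12 and Pcdh15 were not called. Pcdh20 was at 38.4, 67.6 and 93.7 CPM in I/R and at 197, 153 and 172 CPM in sham. The I/R libraries differed from each other by more than the sham libraries did, replicate 1 was lowest and replicate 3 highest, and all lay below sham. Its log2 fold change of -1.39 (SE 0.286, adjusted p = 0.0078 by edgeR) was the lowest among the non-clustered members. Pcdh12, a cadherin of endothelial cells, had 59, 34 and 14 counts in the I/R libraries, and in the sham libraries it had 6, 11 and 13. I/R replicate 3, at 0.349 CPM, lay within the sham range of 0.154 to 0.380 CPM while replicate 1 was highest at 1.28 CPM, and the log2 fold change of 1.61 (95% interval 0.30 to 2.93) did not pass the test (adjusted p = 0.061 by edgeR). It passed without I/R replicate 3 at 1.96, with an adjusted p of 0.022. The summed level of 6 endothelial markers followed the same order over I/R replicates 1, 2 and 3, at 612, 454 and 370 CPM against 209 to 224 CPM in sham, and its part in the Pcdh12 values was not tested. Pcdh15, a component of the tip links of inner ear hair cells, was at 22.7, 17.8 and 17.5 CPM in I/R and at 16.1, 14.0 and 14.7 CPM in sham. Its groups did not overlap and its log2 fold change was 0.37, with an adjusted p of 0.065 by edgeR. It passed in 4 of 18 alternatives, at 0.66 with an adjusted p of 0.012 under scaling by library size alone.

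Counted together, 1 of the 12 non-clustered genes rose, 6 fell and 5 were not called, where 17.2% of all genes tested rose and 16.3% fell. The direction of their median depended on the scaling, since it was -0.15 with TMM and 0.12 with library size alone. With library size alone 5 were called higher and 4 lower, where 28.2% of all genes tested were higher and 8.49% lower. Relative to the median of all genes under the same scaling, their median was -0.22 and -0.23. These values had to be close, since a change of scaling shifts all genes by nearly the same amount. Pcdh1, Pcdh8, Pcdh10, Pcdh19 and Pcdh20 kept their call under all 18 of these alternatives.

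Start sites are shown for Pcdh8, which rose, and for Pcdh10, Pcdh19 and Pcdh20, which fell. Pcdh9 and Pcdh17 fell too and are not printed, and no promoter of Pcdh1 was found. RefSeq promoters (GRCm38.p6, 250 bases before to 50 bases after the start) were found for 9 of the 12 non-clustered members, and 4 are printed 5′ to 3′ on the strand of the gene. Capitals mark any match to the motifs TGACGTCA (cyclic AMP response element), TGACG (its core), CACGTG (E-box), TGANTCA (AP-1) or TATAAA (a core promoter box), searched on both strands. The first is from chr14:79771263-79771562 (minus strand), the second from chr3:45378148-45378447 (plus strand), the third from chrX:133688944-133689243 (minus strand) and the fourth from chr14:88471347-88471646 (minus strand).
Pcdh8: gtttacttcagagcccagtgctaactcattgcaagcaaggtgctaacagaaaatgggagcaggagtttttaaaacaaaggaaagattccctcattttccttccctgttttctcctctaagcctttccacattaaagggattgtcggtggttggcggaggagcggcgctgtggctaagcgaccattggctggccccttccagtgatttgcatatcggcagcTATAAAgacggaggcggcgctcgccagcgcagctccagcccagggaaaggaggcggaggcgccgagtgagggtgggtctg
Pcdh10: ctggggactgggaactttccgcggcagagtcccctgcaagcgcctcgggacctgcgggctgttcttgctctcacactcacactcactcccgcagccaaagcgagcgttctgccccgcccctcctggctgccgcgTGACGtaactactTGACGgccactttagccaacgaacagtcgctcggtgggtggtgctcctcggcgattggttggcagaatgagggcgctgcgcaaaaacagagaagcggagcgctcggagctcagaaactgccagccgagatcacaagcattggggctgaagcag
Pcdh19: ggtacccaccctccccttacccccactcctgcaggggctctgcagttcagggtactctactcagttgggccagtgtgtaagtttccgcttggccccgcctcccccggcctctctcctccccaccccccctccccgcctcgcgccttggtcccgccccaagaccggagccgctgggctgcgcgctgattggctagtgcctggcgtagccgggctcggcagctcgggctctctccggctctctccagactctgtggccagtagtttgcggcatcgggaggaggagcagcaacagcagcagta
Pcdh20: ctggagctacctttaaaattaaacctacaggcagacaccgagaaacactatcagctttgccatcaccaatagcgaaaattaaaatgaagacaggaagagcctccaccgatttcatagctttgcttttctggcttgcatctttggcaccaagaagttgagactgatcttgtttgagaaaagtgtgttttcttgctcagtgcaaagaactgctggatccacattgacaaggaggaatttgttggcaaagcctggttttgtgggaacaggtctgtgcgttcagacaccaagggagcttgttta

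Pcdh8, the gene that rose, held TATAAA 30 bases before its start, a motif found in 13.6% of 32851 promoters of this length. Pcdh15, which was not called, was the other member with this motif. None of the printed promoters, nor those of the other matched members, held TGACGTCA (1.79% of all promoters), CACGTG (7.15%) or TGANTCA (7.81%). TGACG, which is contained in TGACGTCA and was in 20.8% of all promoters, was found 116 and 103 bases before the start of Pcdh10 and once in the promoter of Pcdh9, both of which fell. The GC content was 54.3% in Pcdh8, 62.3% in Pcdh10, 67.7% in Pcdh19 and 43.7% in Pcdh20, against a median of 52.7% over all promoters. Of the genes that fell but are not printed, Pcdh17 was at 65.0% and the entries of Pcdh9 at 62.7% and 62.3%. Among the genes that fell and had a promoter here, only Pcdh20 lay below that median. A match of letters is a description of these windows and not a site of binding.

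In the clusters, 32 of 52 tested genes fell and none rose by edgeR's quasi-likelihood test, a share of 61.5% where 16.3% of all genes tested fell. By the unadjusted p 39 of the 52 were lower and 0 higher, where 4572 of all 22996 genes tested were lower and 5132 higher. By DESeq2 and limma-voom 0 of the 52 were called higher, where 4302 and 3832 of all genes were. A log2 fold change below 0 was found in 49 of the 52. All I/R libraries lay below all sham libraries in 44 and above them in 0, against 24.3% and 26.1% of all genes tested. The median log2 fold change was -0.99 in Pcdha, -0.47 in Pcdhb and -0.67 in Pcdhg with TMM, and -0.72, -0.20 and -0.39 with library size alone. Relative to the median of all genes it was -1.06, -0.54 and -0.74 with TMM and -1.07, -0.55 and -0.74 with library size alone. A change of scaling shifts all genes by nearly the same amount, so these relative values had to be close and do not test the scaling. With library size alone 4, 1 and 5 genes of Pcdha, Pcdhb and Pcdhg were called lower. Of all genes, 28.2% were then called higher and 8.49% lower.

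**Figure D2:**
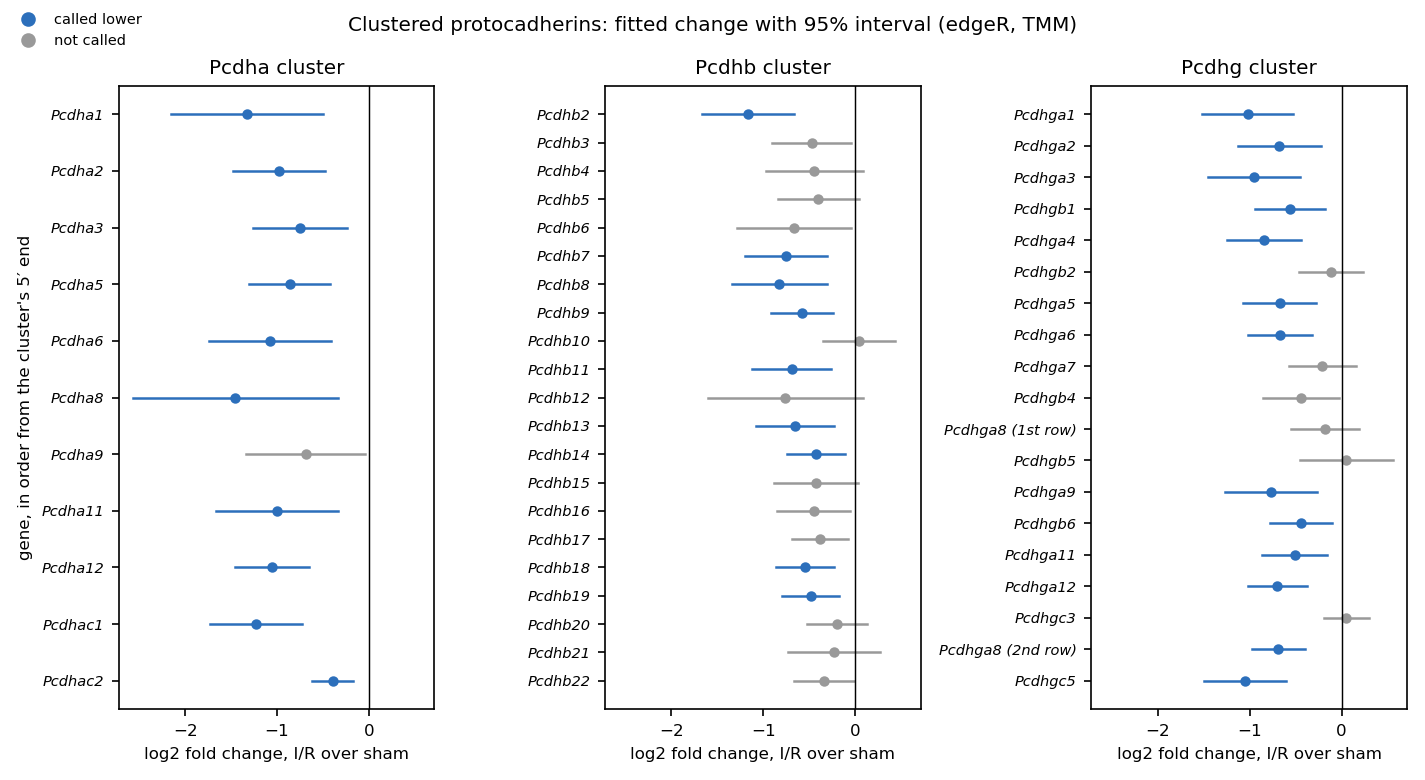
Fitted log2 fold change (I/R over sham) of clustered protocadherins with its 95% interval, in order along each cluster, with genes called lower in blue and genes not called in grey. In Pcdha all points lie below 0, and in Pcdhb and Pcdhg the points at or above 0 are Pcdhb10, Pcdhgb5 and Pcdhgc3, all with intervals that span 0 (Pcdha4, with 16 counts in all, is not drawn).

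In Pcdha, 10 of 12 tested rows fell. The 8 alternate isoforms among them were Pcdha1, Pcdha2, Pcdha3, Pcdha5, Pcdha6, Pcdha8, the first Pcdha11 row and Pcdha12, with fitted levels of 36.6% to 59.5% of sham. The first Pcdha11 row lay between Pcdha9 and the second Pcdha11 row, and no row was named Pcdha10. Which gene the first Pcdha11 row measures is therefore not settled. Pcdha12 was at 2.98, 3.64 and 3.34 CPM in I/R and at 6.69, 7.53 and 6.47 CPM in sham (log2 fold change -1.06, SE 0.180, adjusted p = 0.0024 by edgeR). Its groups lay far apart, and it and Pcdhac1 were the Pcdha genes called under all 18 alternatives. Pcdha8, the alternate with the lowest fitted percent of sham, rested on 13 to 18 counts a library in I/R and 17 to 46 in sham, and its call was lost in 12 of 18 alternatives, upper quartile scaling and limma-voom among them (adjusted p up to 0.21). Pcdha9, at 2.27, 3.91 and 4.76 CPM in I/R and at 4.58, 6.63 and 6.38 CPM in sham, overlapped between groups and was not called (log2 fold change -0.69, adjusted p = 0.095 by edgeR), and neither was Pcdha4. Leaving out either I/R replicate 2 or sham replicate 2 left 5 Pcdha calls, and leaving out sham replicate 3 left 6.

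Both C-type genes of Pcdha fell. Pcdhac1 was at 1.71, 1.74 and 2.27 CPM in I/R and at 4.63, 4.87 and 3.89 CPM in sham, giving a log2 fold change of -1.23 (SE 0.224, adjusted p = 0.0032 by edgeR). Pcdhac2 was at 34.0, 36.2 and 35.9 CPM in I/R and at 42.5, 50.1 and 47.0 CPM in sham, giving a log2 fold change of -0.40 (SE 0.097, adjusted p = 0.013 by edgeR). The call of Pcdhac2 was lost in 5 of 18 alternatives, with library size alone (-0.12, adjusted p = 0.36 by edgeR), in both fits on log2 FPKM and without sham replicate 2 or 3. Both had all I/R libraries below all sham libraries. Pcdhac2 held most of the counts of the cluster, so its share of the summed Pcdha level was 66.0%, 64.0% and 60.7% in I/R, where sham had 53.3%, 54.0% and 54.5%. Every I/R library was above every sham library in this share (exact two-sided permutation p = 0.1, the smallest that 3 against 3 can give).

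In Pcdhb, whose genes are single exons with a median of 4.46% of their 50-base stretches found in other genes, 9 of 21 tested genes fell. These were Pcdhb2, Pcdhb7, Pcdhb8, Pcdhb9, Pcdhb11, Pcdhb13, Pcdhb14, Pcdhb18 and Pcdhb19, with fitted levels of 44.5% to 74.5% of sham. Pcdhb2 was at 2.59, 1.89 and 2.46 CPM in I/R and at 5.43, 4.40 and 5.82 CPM in sham (log2 fold change -1.17, SE 0.221, adjusted p = 0.0038 by edgeR). It lay clear of sham in every library and was the Pcdhb gene called under all 18 alternatives, while the other 8 calls were lost in 5 to 11 of them. Per gene length Pcdhb9 (3.77 FPKM in sham), Pcdhb17 (3.48) and Pcdhb22 (3.34) stood first among the Pcdhb genes, each overlapping the next in the order. The rows with the highest mean CPM, which is not divided by length, were Pcdhb17, at 12.6, 13.3 and 15.0 CPM in I/R and 19.4, 15.5 and 18.6 CPM in sham, Pcdhb9 and Pcdhb16. Pcdhb17 missed the threshold (adjusted p = 0.055 by edgeR) with groups that did not overlap, Pcdhb16, at 7.67, 9.02 and 10.8 CPM in I/R and at 11.6, 11.2 and 14.8 CPM in sham, missed it too (adjusted p = 0.078 by edgeR), and Pcdhb9, at 7.11, 9.15 and 9.24 CPM in I/R and 12.6, 12.6 and 12.8 CPM in sham, fell. Pcdhb10 was at 5.01, 4.73 and 5.05 CPM in I/R and at 4.87, 5.14 and 4.39 CPM in sham, with a log2 fold change of 0.04 and a 95% interval of -0.35 to 0.43. Along the cluster, the log2 fold change and the order of the genes from the 5′ end had a Pearson r of 0.49 over 21 neighbouring genes of the same libraries, where it was 0.06 over 12 Pcdha rows and 0.21 over 19 Pcdhg rows. Without the C-type genes and the row at the place of Pcdhgc4, which Pcdhb lacks, it was -0.07 over 10 Pcdha rows and 0.41 over 16 Pcdhg rows. The number of Pcdhb calls depended on the libraries, since 1 was left when sham replicate 3 was dropped, 3 when sham replicate 2 was dropped, and 4 for sham replicate 1 or I/R replicate 2.

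In Pcdhg, 13 of 19 tested rows fell. The A-type genes among them were Pcdhga1, Pcdhga2, Pcdhga3, Pcdhga4, Pcdhga5, Pcdhga6, Pcdhga9, Pcdhga11 and Pcdhga12, which is 9 of 11 tested A-type rows. Pcdhgb1 and Pcdhgb6 were 2 of 5 tested B-type rows, and the difference between the types was not tested. The call was lost in 8 of 18 alternatives for Pcdhgb1 and 13 for Pcdhgb6, and in 1 to 8 for the A-type genes. Pcdhga3 was at 5.08, 9.67 and 8.39 CPM in I/R and at 15.8, 13.6 and 15.3 CPM in sham (log2 fold change -0.95, SE 0.222, adjusted p = 0.010 by edgeR). I/R replicate 1 was the lowest, and the groups did not overlap. Pcdhga1 had the lowest log2 fold change of the A-type genes, -1.02 (SE 0.221, adjusted p = 0.0071 by edgeR). Pcdhgb2, Pcdhgb4, Pcdhgb5, Pcdhga7 and the first row named Pcdhga8 were not called, with log2 fold changes of -0.44 to 0.05. The 13 calls became 7 without sham replicate 2 or 3, 8 without I/R replicate 2 and 9 without I/R replicate 3.

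Of the C-type genes of Pcdhg, which sit at the 3′ end of the cluster, Pcdhgc5 fell and Pcdhgc3 was not called. Pcdhgc5 was at 40.6, 72.6 and 67.8 CPM in I/R and at 121, 130 and 126 CPM in sham. It lay below sham in every I/R library with replicate 1 lowest, and the log2 fold change was -1.05 (SE 0.195, adjusted p = 0.0041 by edgeR), a call that held under all 18 alternatives. Pcdhgc3, known for its role in dendrite branching of cortical neurons, was at 29.5, 26.6 and 25.1 CPM in I/R and at 25.3, 28.2 and 24.8 CPM in sham. Its groups overlapped, and its log2 fold change of 0.05 had a 95% interval of -0.19 to 0.30, which does not include the -1.05 of Pcdhgc5. The second row named Pcdhga8 lay 8926 bases past Pcdhgc3 and 4430 bases before Pcdhgc5 in the table, where GENCODE M21 has Pcdhgc4 with spacings of 8715 and 4434 bases. That row was at 10.5, 9.62 and 10.7 CPM in I/R and at 17.4, 17.2 and 14.9 CPM in sham and fell, with a log2 fold change of -0.69 (SE 0.127, adjusted p = 0.0035 by edgeR).

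The share of each C-type gene within its cluster does not depend on how the libraries are scaled. Of the summed Pcdhg level, Pcdhgc5 made up 40.3%, 41.4% and 41.5% in the sham libraries, but 23.7%, 35.5% and 34.3% in I/R replicates 1, 2 and 3. Pcdhgc3 made up 8.45%, 9.02% and 8.19% in the sham libraries, but 17.2%, 13.0% and 12.7% in I/R. For both genes the groups did not overlap, in opposite directions, and I/R replicate 1 was the farthest from sham (exact two-sided permutation p = 0.1 for each, the smallest this design allows).

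Summed over all its named rows, each cluster was lower in every I/R library than in any sham library. No row carried the names Pcdha7, Pcdhgb7 or Pcdhgb8, which GENCODE M21 gives to genes of these clusters. The sums and shares therefore leave these genes out. Pcdha was at 55.7 ± 3.94 CPM (SD, n = 3) in I/R and 86.2 ± 6.50 in sham, or 64.6% of sham. Pcdhb was at 120 ± 10.9 CPM in I/R and 168 ± 3.40 in sham, or 71.4% of sham, and Pcdhg at 191 ± 17.5 and 305 ± 6.89, or 62.7% of sham. Each sum gave p = 0.1 in an exact two-sided permutation test, the smallest possible here. Without Pcdhac2 the Pcdha sum was at 51.3% of sham, and without Pcdhgc3, Pcdhgc5 and the row at the place of Pcdhgc4 the Pcdhg sum was at 68.1%. With library size alone the sums were at 78.2%, 86.3% and 75.7% of sham for Pcdha, Pcdhb and Pcdhg.

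**Figure D3:**
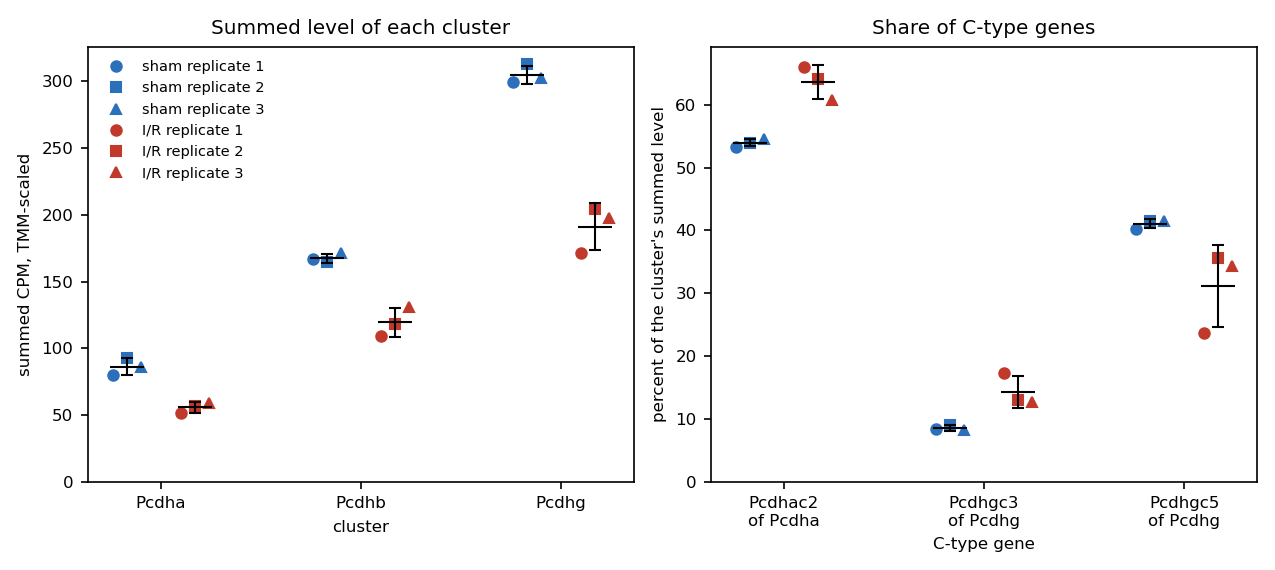
Left, summed CPM of the named rows of each cluster in each library, and right, the share of a C-type gene in that sum in percent, with sham in blue, I/R in red, and black lines for mean ± SD of 3 libraries. All red points of the sums lie below the blue points, while the shares of Pcdhac2 and Pcdhgc3 are higher and that of Pcdhgc5 is lower in I/R.

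Counts of single clustered genes need care, because the annotation lets their exons overlap. In GENCODE M21 (read on both strands) a median of 53.6% of the exonic bases of Pcdha genes and 45.3% of Pcdhg genes lay within exons of other genes, against a median of 0 in Pcdhb and in the non-clustered genes. The counts carry gene identifiers of the Ensembl annotation of the BALB/cJ strain, in which these overlaps were not measured. HTSeq in its usual settings drops a read that falls on several genes. Pcdha4 and Pcdhga10, with 93.0% and 100% of their exonic bases in exons of other genes, had 16 and 0 counts over all libraries, fewer than any other Pcdha or Pcdhg row apart from the second Pcdha11 row (1 count). A count of 0 allows up to 3 counts a library by counting error alone and does not show that a gene was silent. Under those settings the values of the other Pcdha and Pcdhg genes rest on the part of each gene that the annotation gives to it alone.

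**Figure D4:**
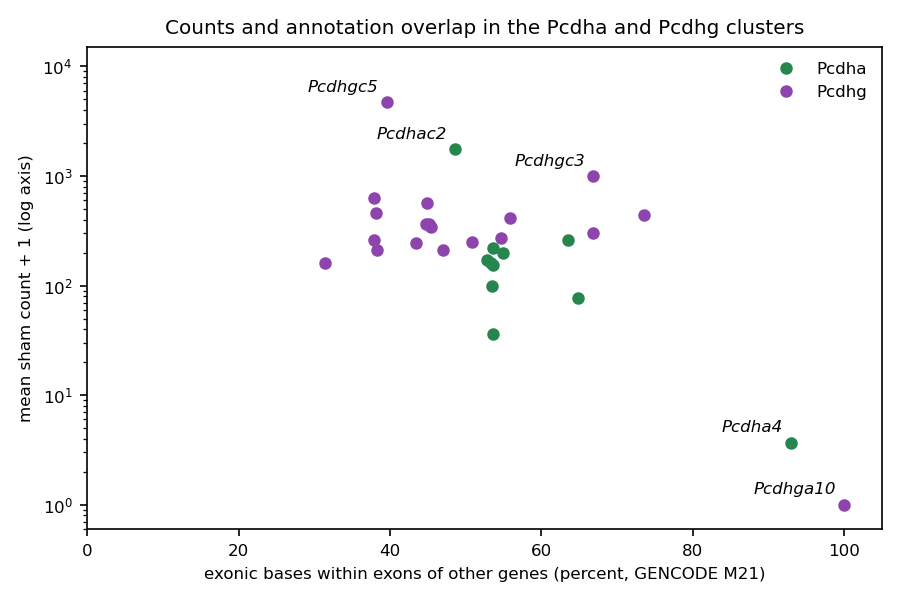
Mean sham count + 1 of Pcdha and Pcdhg genes (log axis) against the percent of exonic bases that lie within exons of other genes in GENCODE M21. Pcdha4 and Pcdhga10 lie at the right with 16 and 0 counts over all 6 libraries, and the other genes lie between 31.5% and 73.6% (Pcdha11, a name on 2 rows, is not drawn).

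Markers of some cell types fell as most protocadherins did, while those of others rose, were mixed or were not called. Of all genes tested, 16.3% fell and 17.2% rose by the same rule. All 9 neuron markers found in the table fell, with Camk2a the most abundant at 1352 ± 709 CPM in I/R and 5740 ± 42.5 in sham (SD, n = 3), as did 5 of 5 dentate granule cell markers (135, 241 and 262 CPM summed in I/R replicates 1, 2 and 3, 469 to 508 CPM in sham) and 3 of 4 CA1 pyramidal cell markers (164, 271 and 294 CPM, 518 to 539 CPM). I/R replicate 1 was the lowest library in each of these sums, as it was in Pcdh1, Pcdh10, Pcdh17, Pcdh19 and Pcdh20 but not in Pcdh9. Of the other lists, 4 of 6 interneuron, 2 of 4 CA3 pyramidal cell, 3 of 5 oligodendrocyte precursor and 3 of 6 oligodendrocyte markers fell and none of these rose. Astrocyte markers gave 3 higher and 3 lower of 7, microglia 2 and 2 of 6, pericytes and fibroblasts 4 and 2 of 7, choroid plexus 0 and 0 of 10 and striatum 1 and 0 of 6. All 6 endothelial markers rose, Flt1 from 80.5 ± 1.11 to 131 ± 23.6 CPM. What part these cell types had in the protocadherin values was not tested. With the choroid plexus level as a covariate, 7 non-clustered, 9 Pcdha, 8 Pcdhb and 12 Pcdhg genes were called.

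**Figure D5:**
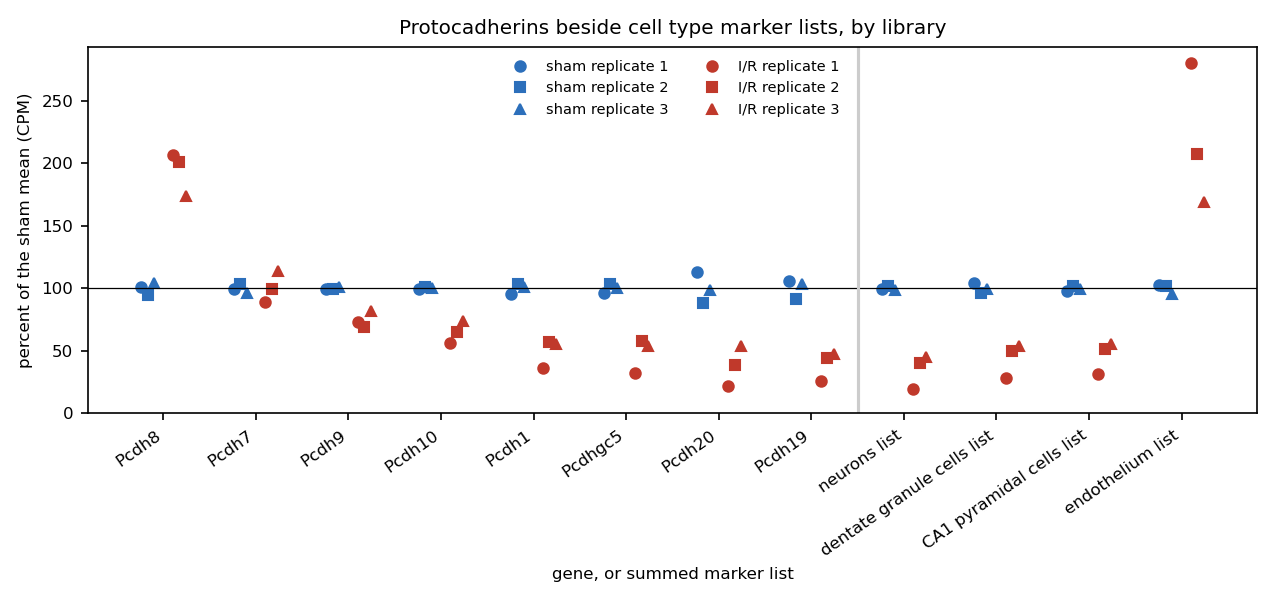
Level of selected protocadherins and summed level of 4 cell type marker lists in each library, in percent of the sham mean, with sham in blue and I/R in red and a marker shape for each replicate number. Pcdh8 and the endothelium list lie above 100% in all I/R libraries, Pcdh7 lies around 100%, and Pcdh1, Pcdhgc5, Pcdh19, Pcdh20 and the neuronal lists lie lowest in I/R replicate 1.

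Genes that act with protocadherins were counted in lists. The list of the WAVE complex, which remodels actin and binds the tails of delta-2 protocadherins, also held the adaptor Baiap2 and the regulator Rac1 and had 6 of 11 genes lower and 1 higher, with a median log2 fold change of -0.50. Wasf1 (-1.42, SE 0.331, adjusted p = 0.013 by edgeR), Cyfip2 (-1.03) and Nckap1 (-0.81), a subunit that Pcdh10 binds, fell, and Wasf2, the form found widely outside neurons, rose by 0.74 (SE 0.195, adjusted p = 0.019). Protocadherin partners and cleavage enzymes had 5 lower and 3 higher of 27, with a median of -0.13 that was 0.15 with library size alone. Here Ptk2b (-1.58), a kinase that clustered protocadherins inhibit, Prkca (-1.23) and Nlgn1 (-1.01) fell, and Rock1 (0.73), Axin1 (0.33) and Psenen (0.33) rose. Taok2, the kinase that acts with Pcdh8, fell by 0.37 on the log2 scale (SE 0.089, adjusted p = 0.011 by edgeR) while Pcdh8 itself rose.

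Regulators of chromatin at the clusters, which set promoter choice and loop enhancers to promoters, had 3 lower, 3 higher and 13 not called of 19, with a median of 0.0024. Pds5b (-0.81) and Ctcf (-0.31), the insulator protein that binds the cluster promoters, were among those that fell, and Rest (1.37), a repressor of neuronal genes, Wapl (0.33) and Pds5a (0.33) rose. This balance depended on the scaling, with 9 higher and 1 lower with library size alone. Among other cadherins, 13 of 40 fell and 3 rose, with a median of -0.33. The largest falls were in Cdhr1 (-1.33), Cdh24 (-1.15) and the calsyntenin Clstn1 (-1.12), and the rises were in Cdh1 (1.49), in Cdh5 (1.88), the cadherin of endothelial junctions, and in Cdh17, which had 0 counts in sham and a mean of 0.322 CPM in I/R. Of 8 catenins, which link classical cadherins but not protocadherins to actin, Ctnna2 (-1.04), Pkp4 (-0.55) and Ctnnd2 (-0.48) fell, Ctnna1 (1.01) and Jup (0.37) rose, and Ctnnb1 was at 563 ± 11.4 CPM in I/R and 578 ± 17.7 in sham. Of all genes tested, 16.3% fell and 17.2% rose.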

How the data were processed

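Total RNA of 6 hippocampal libraries (3 I/R, 3 sham, placed by their titles) was sequenced by the authors. Per the study's methods the authors aligned reads with TopHat 2 to an Ensembl genome and deposited raw read counts per gene from HTSeq. The deposited table also gives FPKM, which scales each count to gene length and library total. Gene identifiers belong to the Ensembl annotation of the BALB/cJ strain, while the mice were C57BL/6 and the submitters' processing notes list Bowtie 0.12.2 and mm8, so no coordinates of the table are printed. Whether counting used the strand or kept reads that fit several places is not given in the sources used here. Columns with the authors' own group means, fold changes, p-values and adjusted p-values were not used. The table had 41390 lines, of which 4 were split and rejoined.

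Counts of rows with at least 10 counts over the 6 libraries went into edgeR 4.0.16 under R 4.3.3 (TMM, glmQLFit with robust estimation, glmQLFTest, no covariates), with Benjamini-Hochberg adjustment over 22996 genes. Standard errors (SE) were derived from the fold change and its F statistic. Sums and shares were compared by exact two-sided permutation tests over libraries. Members, lists and tests were chosen with earlier results of these data known. By rule, the text names every non-clustered member, each called clustered gene, the 3 most abundant rows of each cluster and each C-type gene. Of each other list it names the called genes with the 3 largest rises and 3 largest falls. Of the marker lists, only the most abundant genes of the neuron and endothelial lists are named. Taok2 and Ctnnb1 were named after their values were seen, and so were the uncalled clustered genes that this rule does not cover. P-values measure the spread between pools of hippocampi. Intervals and floors cover counting error only where they are given for counts.

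Alternatives were DESeq2 1.42.0, limma 3.58.1 (voom, and log2 FPKM with pseudocounts of 1 and 0.1), other scalings and count filters, a replicate block, a choroid plexus covariate, a fold change over 2, unadjusted p and leaving out each library. On simulated counts over 22996 genes for I/R against sham, with 2 simulations pooled, the fit recovered 79 of 190 genes changed by 1 on the log2 scale and 142 of 194 changed by 2. Far fewer genes were changed there than the 33.4% called in the data. The adjustment for multiple tests was therefore stricter, and these rates need not hold for the data. Promoters came from RefSeq (GRCm38.p6), exon overlaps from GENCODE M21. Names of the lists not found in the table were Setdb1, Ctnnd1 and Map2, and the protocadherin names Pcdha7, Pcdhgb7 and Pcdhgb8 of GENCODE M21 were on no row. The values of 1 gene of the chromatin list are not reported here.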

Additional observations from a re-analysis of the deposited data

How the results depend on the processing

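No called protocadherin changed direction under any of 18 alternatives, and calls held under all of them in 5 of 7 non-clustered, 2 of 10 Pcdha, 1 of 9 Pcdhb and 1 of 13 Pcdhg genes. A fold change over 2 and the unadjusted p are not among these 18. Where a number moved, the cause was not tested beyond what the setting itself changes. With library size alone the calls were 4 in Pcdha, 1 in Pcdhb, 5 in Pcdhg and 10 in the chromatin list, and the log2 ratio of the sums was -0.35 in Pcdha, -0.21 in Pcdhb and -0.40 in Pcdhg (-0.37, -0.24 and -0.45 from summed FPKM, against -0.63, -0.49 and -0.67). With limma on log2(FPKM + 1) there were 2 Pcdha, 1 Pcdhb, 3 Pcdhg, 10 chromatin and 4 WAVE calls, and on log2(FPKM + 0.1) 2, 1, 1, 10 and 5. A fold change over 2 left 2937 of 7688 genes, 3 non-clustered, 6 Pcdha, 1 Pcdhb, 2 Pcdhg, 1 chromatin, 2 WAVE, 3 partner, 8 other cadherin and 2 catenin genes. By unadjusted p 14 Pcdhb genes passed, and without a count filter 5 partner genes.

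Leaving out each library in turn gave 5177 to 8124 calls over all genes, 6 to 8 non-clustered, 5 to 10 Pcdha, 1 to 11 Pcdhb, 7 to 13 Pcdhg, 3 to 6 chromatin, 5 to 9 WAVE, 4 to 10 partner, 13 to 18 other cadherin and 3 to 6 catenin calls, and sums of -0.70 to -0.57 in Pcdha, -0.58 to -0.43 in Pcdhb and -0.74 to -0.60 in Pcdhg. Replicate numbers were not taken as pairs. In their deviations from the group means, same-numbered libraries had correlations of -0.05, 0.03 and -0.10, and unlike-numbered libraries -0.10 to 0.15. With 3 libraries a group, these values cannot show whether same-numbered libraries were handled together. With a replicate block 6391 genes were called, 8 of them in Pcdhg and 3 in the chromatin list.

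The genes whose direction turned were all uncalled. With library size alone, log2(FPKM + 1) and log2(FPKM + 0.1), the values were 0.13, 0.0023 and 0.017 in Pcdha4, 0.078, 0.056 and 0.075 in Pcdhb20, 0.048, 0.019 and 0.026 in Pcdhb21, 0.17, 0.11 and 0.15 in Pcdhgb2, 0.071, 0.044 and 0.067 in Pcdhga7 and 0.091, 0.057 and 0.078 in the first Pcdhga8 row. Leaving out each library gave -1.36 to 1.07 in Pcdha4, -0.020 to 0.093 in Pcdhb10, -0.12 to 0.19 in Pcdhgb5, -0.013 to 0.11 in Pcdhgc3 and -0.11 to 0.094 in Pcdh7. With the choroid plexus covariate Pcdh7 was at -0.0042. Depth limits genes with few counts, such as Pcdh12 with 6 to 59 counts a library and the called Pcdha alternates with 13 to 303.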
